A study of Mus musculus with 13 samples.

Results

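Wild-type (PERK WT) mouse embryonic fibroblasts (MEFs) in the late phase of ER stress were compared with the same cells left untreated. The late phase was taken as 5 h and 8 h of 1 µM thapsigargin (Tg), and the comparison used 3 of the 13 libraries of the series: the untreated control, 5 h and 8 h. Ribosome footprint profiling sequences the mRNA fragments that ribosomes protect, so a gene's value reads its relative protein synthesis. Of the 22406 gene symbols in the tables, the 10432 with a mean of at least 2 TPM (read counts divided by coding length and brought to one total in every library) over the 10 MEF libraries were analysed. Zfp873 (mean 2.00 TPM) was the last gene inside this limit and Nudt16 (mean just under it, with 0.31 TPM untreated and 4.96 and 2.65 TPM after Tg) the first outside.

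The other MEFs of the series carry a knockout of PERK (PERK −/−), the ER stress sensor kinase encoded by Eif2ak3, and were treated in the same way for the same times. NIH3T3 cells, an established mouse fibroblast line, were treated with 0.2 µM Tg for 7 h. Both are used below only for values side by side, each against its own untreated control. Both genotypes of MEFs were grown with 10% serum, non-essential amino acids and beta-mercaptoethanol, and the latter additives are not listed for NIH3T3 cells. How many embryos or clones stand behind each genotype is not given in the sources used here. With a single library per condition there was no replicate error to read a difference by, and no p-value is given. The late libraries at 5 h and 8 h differ in time and share a single control, so anything particular to that control moves both.

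Tg blocks the SERCA calcium pumps of the ER, which empties the calcium store that ER chaperones need to fold proteins. Unfolded proteins then switch on the sensors PERK, IRE1 and ATF6. PERK phosphorylates eIF2α, which slows most translation but lets the transcription factor ATF4 be made, and ATF4 with CHOP (Ddit3) turns on amino acid supply, redox and feedback genes. IRE1 splices the mRNA of XBP1, and ATF6 is cut at the Golgi, and these factors turn on ER chaperones and the machinery of ER-associated degradation. Because TPM values are shares of a library, every change below is relative to the other genes of the same library, and a fall in the total amount of translation cannot be read from it.

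The control library held 11949174 expected counts, the 5 h library 5617552 and the 8 h library 11178364. A count of 3 was equal to 0.251, 0.534 and 0.268 CPM in them, and intervals below cover counting error only. The defining genes of fibroblasts were high in all 3 libraries, with 6 of 7 markers over 10 TPM (vimentin, Vim, had 2977, 3143 and 3085 TPM), while Pdgfra was at 0.27, 2.53 and 1.32 TPM. Of the markers of other cells, Ptprc, Lyz2, Adgre1, Pecam1, Tie1, Myod1, Myog, Des and Gfap were at 0 in all 3 libraries. The summed level of the 6 macrophage markers was 6.92 to 8.69 TPM, that of the 5 endothelial markers 1.55 to 2.74, and that of the 5 muscle markers 0 to 0.49. The 5 epithelial markers summed to 19.7, 11.7 and 12.1 TPM, and the 5 neural markers to 96.0, 166 and 157, nearly all of it Nes and Tubb3, of which Tubb3, at 63.4, 142.5 and 134.9 TPM, was over 2-fold above the control at both times. In these bulk cultures fewer cells of one kind and less RNA per cell cannot be told apart.

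Several genes up in the late state carry DNA elements of the stress factors just before their start, and some of these stretches are shown. Other genes among the largest increases, such as Ddit3, Atf4 and Atf5, held none of the elements searched for. The promoter table of RefSeq (GRCm38.p6, the assembly of mm10) gave a window from 250 bases before to 50 bases after the start for 8417 of the 10432 genes. It was searched on both strands for the ER stress response element (ERSE: CCAAT and CCACG with 9 bases between them), which binds ATF6 with NF-Y, and for the C/EBP-ATF element (CARE: TGATGNAA), which binds ATF4 with its C/EBP partners. TGACGTGG (UPRE) and TGACGTCA (CRE) were searched as well, and UPRE ends in the letters that read CCACG on the other strand. The 100 bases below are written 5′ to 3′ in the direction of the gene, with the CCAAT and CCACG letters of an ERSE, or all 8 letters of a CARE, in capitals. The first 5 genes hold an ERSE.
Syvn1: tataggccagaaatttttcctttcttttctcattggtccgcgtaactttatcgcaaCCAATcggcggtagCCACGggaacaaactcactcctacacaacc
Hspa5: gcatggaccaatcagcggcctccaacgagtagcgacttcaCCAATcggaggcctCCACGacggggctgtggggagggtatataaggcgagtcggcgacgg
Ero1lb: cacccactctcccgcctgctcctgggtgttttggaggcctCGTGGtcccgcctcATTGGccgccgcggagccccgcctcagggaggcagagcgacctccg
Creld2: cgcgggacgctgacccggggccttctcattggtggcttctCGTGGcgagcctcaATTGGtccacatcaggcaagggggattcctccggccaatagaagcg
Alg12: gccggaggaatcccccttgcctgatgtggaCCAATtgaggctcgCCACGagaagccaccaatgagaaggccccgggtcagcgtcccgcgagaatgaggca
The next 5 hold a CARE.
Herpud1: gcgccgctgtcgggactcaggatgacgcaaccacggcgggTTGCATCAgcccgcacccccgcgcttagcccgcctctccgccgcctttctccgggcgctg
Chac1: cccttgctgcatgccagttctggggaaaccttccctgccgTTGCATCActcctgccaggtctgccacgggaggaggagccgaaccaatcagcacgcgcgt
Nupr1: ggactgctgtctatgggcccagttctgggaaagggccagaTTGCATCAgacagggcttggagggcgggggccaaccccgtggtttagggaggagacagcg
Slc7a11: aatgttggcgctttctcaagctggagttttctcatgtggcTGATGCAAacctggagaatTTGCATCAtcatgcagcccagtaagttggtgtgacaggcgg
Atf3: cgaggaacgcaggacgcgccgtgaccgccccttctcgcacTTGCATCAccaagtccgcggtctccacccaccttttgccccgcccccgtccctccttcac
The ERSE of Hspa5 (plus strand, chr2:34771985-34772084) lay 65 to 47 bases before the start and that of Syvn1 (plus strand, chr19:6046476-6046575) 44 to 26 bases before it. Ero1lb had it in the reverse direction 201 to 183 bases before the start (plus strand, chr13:12565642-12565741). Creld2 (plus strand, chr15:88819480-88819579) and Alg12 (minus strand, chr15:88819469-88819568) are neighbours transcribed away from each other, and a single ERSE lies between them, 126 to 108 bases before the start of Creld2 and 220 to 202 bases before that of Alg12. The CAREs lay 112 to 105 bases before the start of Herpud1 (plus strand, chr8:94386277-94386376), 193 to 186 before Chac1 (plus strand, chr2:119351009-119351108), and 110 to 103 before both Nupr1 (minus strand, chr7:126625521-126625620) and Atf3 (minus strand, chr1:191183384-191183483). Slc7a11 (minus strand, chr3:50443620-50443719) held a facing pair, at 66 to 59 and 47 to 40 bases before its start. These genes were picked for the element and the size of their change, after their values were seen.

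A gene was called up (or down) in the late state when its TPM, raised to 4 where it was lower, was at least 2-fold above (or below) the control at both 5 h and 8 h. By this rule 524 genes, 5.02% of those analysed, were up and 306 genes, 2.93%, were down. The genes up made 63.1% of all calls on the TPM scale, but 51.6% when counts were scaled by TMM factors (427 up and 400 down) and 53.6% with DESeq2 size factors (444 up and 384 down). The 95% counting intervals of the count ratio lay on one side of 1 at both times for all 524 genes up and for 300 of the 306 genes down. The genes were chosen by their change in these same libraries, so this is no separate support for the calls. The genes up had a median of 9.94 TPM in the control and the genes down 55.8 TPM. Together the genes up took 2.79% of all footprints in the control, 8.56% after 5 h and 8.82% after 8 h, and the genes down 6.07%, 2.54% and 2.46%, shares that follow from how they were chosen. The late change, given from here on, is the mean of the log2 changes at 5 h and at 8 h, and its median over all genes was 0.02. Of the genes up, 73 had a late change of at least 2, and of the genes down 21 had one of −2 or lower. In the control, 70 of the genes up were under the floor of 4 TPM, so their late change understates the difference.

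**Figure D1:**
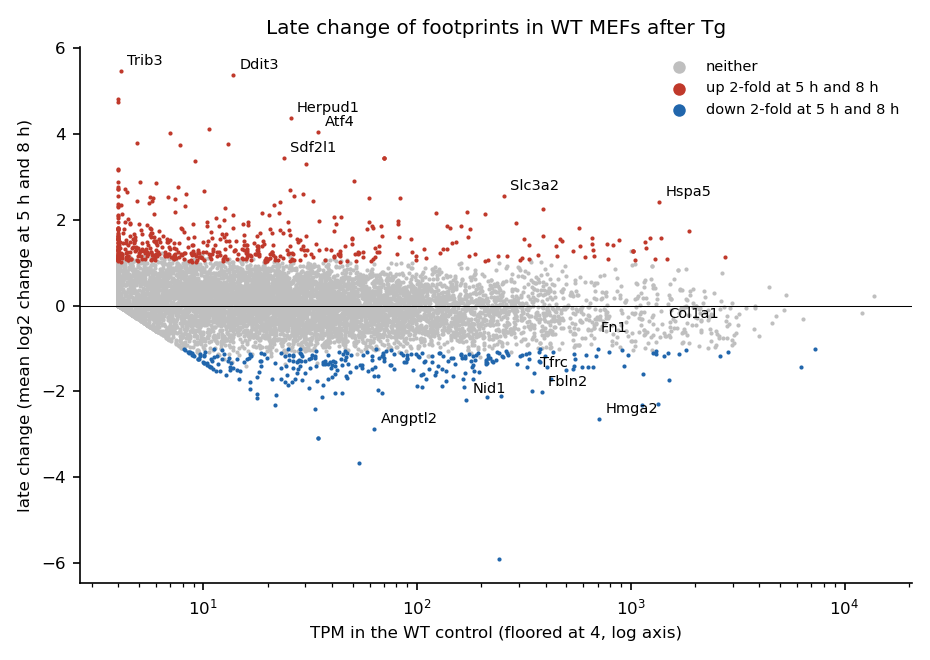
Late change (mean log2 change at 5 h and 8 h) of each of the 10432 genes against its TPM in the WT control, floored at 4 and on a log axis, with the 524 genes up in red and the 306 genes down in blue. The largest increases lie among genes of low control level such as Trib3, while Hspa5 is up from a control level of 1357 TPM and Col1a1 and Fn1 lie below 0 without being called.

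The 5 h and 8 h libraries differed little from each other. The median size of the 8 h to 5 h difference was 0.08 on the log2 scale, and 95% of genes were within 0.40. Only 15 genes (0.144%) were at least 2-fold apart, and Zfp654 was the single one with a mean of at least 100 counts over the 3 libraries, at 12.5 TPM in the control, 11.2 after 5 h and 5.23 after 8 h. By counts per library total Zfp654 was at 0.888 (0.705 to 1.11) of the control at 5 h and 0.748 (0.616 to 0.905) at 8 h, so its gap between the late libraries was over 2-fold by TPM only. Eif3j2, with 0 counts untreated, 0 at 5 h and 114 at 8 h, has a near-identical copy that could share its reads.

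The regulators downstream of PERK had the highest median of the 28 lists examined. Counts of list members called in WT MEFs are to be read beside the 5.02% of all genes up and the 2.93% down. Of 20 genes of the PERK-ATF4-CHOP axis, 17 were up, none was down, and the median late change was 2.51, against 0.02 over all genes. Trib3, a pseudokinase that feeds back on ATF4, had 4.12 TPM in the control, 181 after 5 h and 183 after 8 h, and Ddit3, which encodes CHOP, had 13.8, 565 and 580. Both late libraries stood far above the control for each, with late changes of 5.46 and 5.37. Per library total, the counts of Trib3 were 44.0-fold (95% interval 33.3 to 59.3) and 44.3-fold (33.7 to 59.6) those of the control. Atf4 itself (chr15:80255184-80257541 of mm10, plus strand) had 34.5, 569 and 576 TPM. For Atf5, a relative of ATF4 whose translation is also raised when eIF2α is phosphorylated, the values were 2.74, 100 and 117 TPM. Chac1, an enzyme that degrades glutathione, had 10.6, 184 and 186 TPM. Ppp1r15a, the GADD34 subunit that directs the phosphatase to eIF2α, had 7.01, 110 and 117 TPM. All 4 were at similar levels at 5 h and 8 h, and their late changes were 4.05, 4.76, 4.13 and 4.02.

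The feedback arm was not uniform. Ppp1r15b, the constitutive partner of the same phosphatase, had 35.9 TPM in the control and 21.3 and 21.5 TPM in the late libraries, a late change of −0.75. The C/EBP partner Cebpg (late change 0.53) and the AP-1 family repressor Jdp2 (0.89) were the other 2 members under the threshold, and both had higher values at 5 h and 8 h than in the control. Eif2ak3, which encodes PERK, had 6.03, 14.0 and 15.7 TPM, but its counts per library total were 1.57-fold (1.29 to 1.90) and 1.54-fold (1.31 to 1.81) those of the control, so that its late change was 1.30 by TPM and 0.53 by counts with TMM factors, where it was not called. Eif2ak3 footprints were also found in PERK −/− MEFs, at 11.2 TPM untreated and 14.9 and 17.2 TPM after Tg. These gene totals do not tell which part of the coding sequence they came from, so they do not check the knockout.

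**Figure D2:**
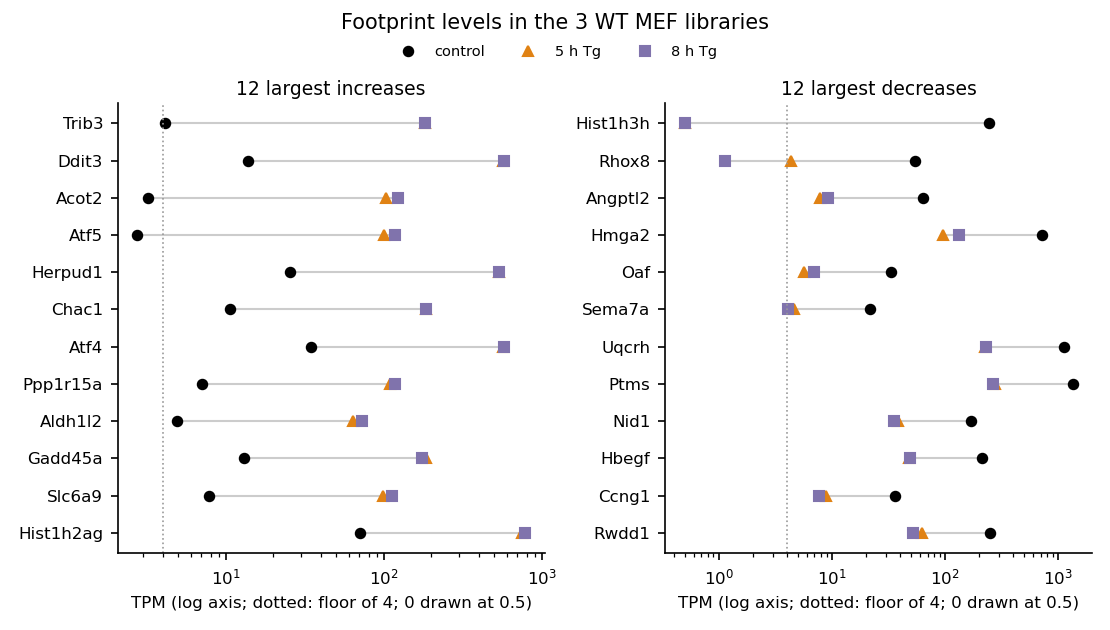
TPM (log axis) in untreated WT MEFs and after 5 h and 8 h of Tg for the 12 genes with the largest late increase (left) and decrease (right) among those called with at least 100 counts on average. A value of 0 is drawn at 0.5. The 5 h and 8 h marks lie close together, Rhox8 excepted, and far from the control, and Trib3, Acot2 and Atf5 start at or under about the floor of 4 TPM.

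The 12 largest increases among genes with at least 100 counts on average included genes outside this list. Acot2, a mitochondrial acyl-CoA thioesterase that no list holds, had 3.21, 103 and 123 TPM (late change 4.82). Gadd45a, a growth arrest gene, had 13.1, 184 and 174 TPM (3.78). Hist1h2ag had 70.3, 750 and 784 TPM and shares all its values with copies of the same gene, as described for the histones.

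Many genes of amino acid supply were up. Of 28 measured enzymes of serine, one-carbon and other amino acid pathways, 13 were up and none down, with a median of 0.95. Aldh1l2, the mitochondrial formyltetrahydrofolate dehydrogenase, had 4.90, 63.4 and 72.4 TPM (late change 3.79), and Psph, which makes the last step of serine synthesis, had 50.6, 373 and 380 TPM (2.90). Pck2, the mitochondrial PEP carboxykinase, had 25.6, 164 and 169 TPM (2.70), and Gpt2, an alanine transaminase, 10.1, 62.9 and 65.5 TPM (2.67). All 4 were far above the control at both times. Asns, asparagine synthetase, had 67.5, 246 and 246 TPM (1.87).

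Of 23 amino acid transporters, 7 were up and none down, and the median was 0.32. The cystine carrier Slc7a11 had 2.51, 35.8 and 36.4 TPM (late change 3.17 with the floor), the glycine carrier Slc6a9 7.80, 98.2 and 112 TPM (3.75), and the cationic carrier Slc7a3 4.4, 28.0 and 27.3 TPM (2.65). Slc3a2, the heavy chain that the light chains Slc7a5 and Slc7a11 need at the membrane, was already at 255 TPM in the control and had 1410 TPM at 5 h and 1572 at 8 h (2.55). Slc7a5 itself had 142, 489 and 501 TPM, a late change of 1.80.

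Of the 20 cytosolic aminoacyl-tRNA synthetases, which charge tRNAs for translation, 9 were up, none was down and the median was 0.91. Wars had 62.1, 209 and 225 TPM (late change 1.80), Aars 152, 418 and 438 (1.49), Tars 138, 348 and 340 (1.32) and Yars 94.4, 223 and 225 (1.25). Several lay close to the threshold, and 6 of the 20 were up under TMM scaling and 7 under that of DESeq2. The list took 0.634% of footprints in the control, 1.15% after 5 h and 1.17% after 8 h. The 17 mitochondrial synthetases had a lower median, 0.36, and none was called. Aars2, the mitochondrial alanine enzyme, had 4.09, 6.65 and 6.53 TPM, Tars2 13.2, 22.1 and 19.2, Cars2 8.81, 12.5 and 14.3, and Lars2 6.88, 4.90 and 4.88.

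The ER folding machinery was split. Of 27 ER chaperones and co-chaperones, 7 were up, 1 was down and the median was 0.17. Hspa5, which encodes BiP, the main HSP70 of the ER, had 1357 TPM in the control, 7253 after 5 h and 7149 after 8 h, a late change of 2.41. By itself it took 0.276% of all footprints in the control, 1.47% after 5 h and 1.46% after 8 h, while the other 26 genes of the list together took 1.46%, 1.61% and 1.599%. The whole list went from 1.73% to 3.08% and 3.06%. Sdf2l1, a BiP co-factor, had 23.9, 240 and 279 TPM (3.44), Dnajb9, an ER J-domain protein, 20.3, 94.1 and 80.4 (2.10), and Manf 318, 946 and 931 (1.56). Hyou1, the BiP nucleotide exchange factor, Creld2 and the prolyl isomerase Fkbp11 were the other 3 up, with late changes of 1.46, 1.56 and 1.39.

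The lectin chaperones were level or below the control. Calr had 3468, 3337 and 3287 TPM (late change −0.07) and Canx 1244, 764 and 722 TPM (−0.75), although both promoters hold an ERSE. Dnajc10, an ER J-domain disulfide reductase, was the single member down, at 117, 53.6 and 50.1 TPM (−1.18). Hsp90b1, which encodes GRP94, had 1731, 2234 and 2204 TPM, and its late change of 0.36 was under the threshold. Dnajc10 was not called once the GC trend described below was removed (−0.86).

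Of 18 ER oxidoreductases, Ero1lb and Pdia4 were up and Erp44 and Tmx3 down. Ero1lb, an oxidase that recharges protein disulfide isomerases, had 4.32, 17.4 and 15.99 TPM (late change 1.95), and Pdia4 had 303, 620 and 639 TPM (1.05). Erp44, which returns unfinished proteins from the early secretory pathway, had 161, 74.9 and 69.1 TPM (−1.17), and Tmx3, a membrane-bound isomerase, 128, 63.7 and 54.9 TPM (−1.12). Pdia4 was not called with TMM factors (0.95) or DESeq2 size factors (0.96), and neither Erp44 (−0.78) nor Tmx3 (−0.72) was called with the GC trend removed.

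Proteins kept in the ER by a C-terminal KDEL-type signal were mostly not called. Of the 25 analysed genes whose GENCODE coding sequence ended in K, H or R followed by DEL, Hspa5 and Sdf2l1 were up and Dnajc10 and Erp44 down (8.0% each way, against 5.02% and 2.93% of all genes), and the median was −0.07. Neither of the latter pair was called with the GC trend removed. P3h2 (late change 1.06), Cercam (0.81), Pdia6 (0.71) and Rcn3 (0.70) came next above, and Uggt2 (−0.98), Fkbp7 (−0.60) and Kdelc1 (−0.53) next below.

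ER-associated degradation had 7 of 26 members up and none down (median 0.20). Herpud1, the scaffold of the degradation complex, had 25.6, 534 and 535 TPM, and its late change of 4.38 was the largest on this list. The ubiquitin ligase Syvn1 (HRD1) had 26.6, 152 and 162 TPM (2.56), the selenoprotein Selk 81.1, 315 and 322 (1.97), and the ligase Rnf5 17.9, 60.7 and 49.7 (1.62). Sel1l (1.58) and Edem1 (1.51), partners of HRD1 in substrate delivery, were up as well, and Derl3 was listed at 0 in the control and at 11.6 and 12.9 TPM in the late libraries.

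Of the 10 sensors and factors of the IRE1 and ATF6 arms, 3 were up, none was down and the median was 0.79. Xbp1 had 29.2, 180 and 174 TPM (late change 2.60), Wfs1, an ER membrane protein that holds ATF6 in check, 5.65, 32.7 and 33.1 (2.54), and Creb3, a relative of ATF6, 39.7, 102 and 92.2 (1.29). Creb3l2 reached 2-fold at 5 h but just missed it at 8 h, at 25.3, 61.7 and 49.7 TPM. Translocation and N-glycosylation had 4 of 49 members up, namely Alg12 (1.80), Alg2 (1.54), the stress-linked translocon protein Serp1 (1.24) and Sec61b (1.16), and the median was 0.07. COPII and COPI transport had 3 of 39 up, Tmed3 (1.32), Sec24d (1.22) and Sec16a (1.08), with a median of 0.41. The counts up of both these lists were not far above the 5.02% of all genes. Sec61b and Sec16a were not called with TMM factors, with DESeq2 size factors or with the GC trend removed. Cope, a coatomer subunit, had 90.5, 164 and 180 TPM (0.93).

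**Figure D3:**
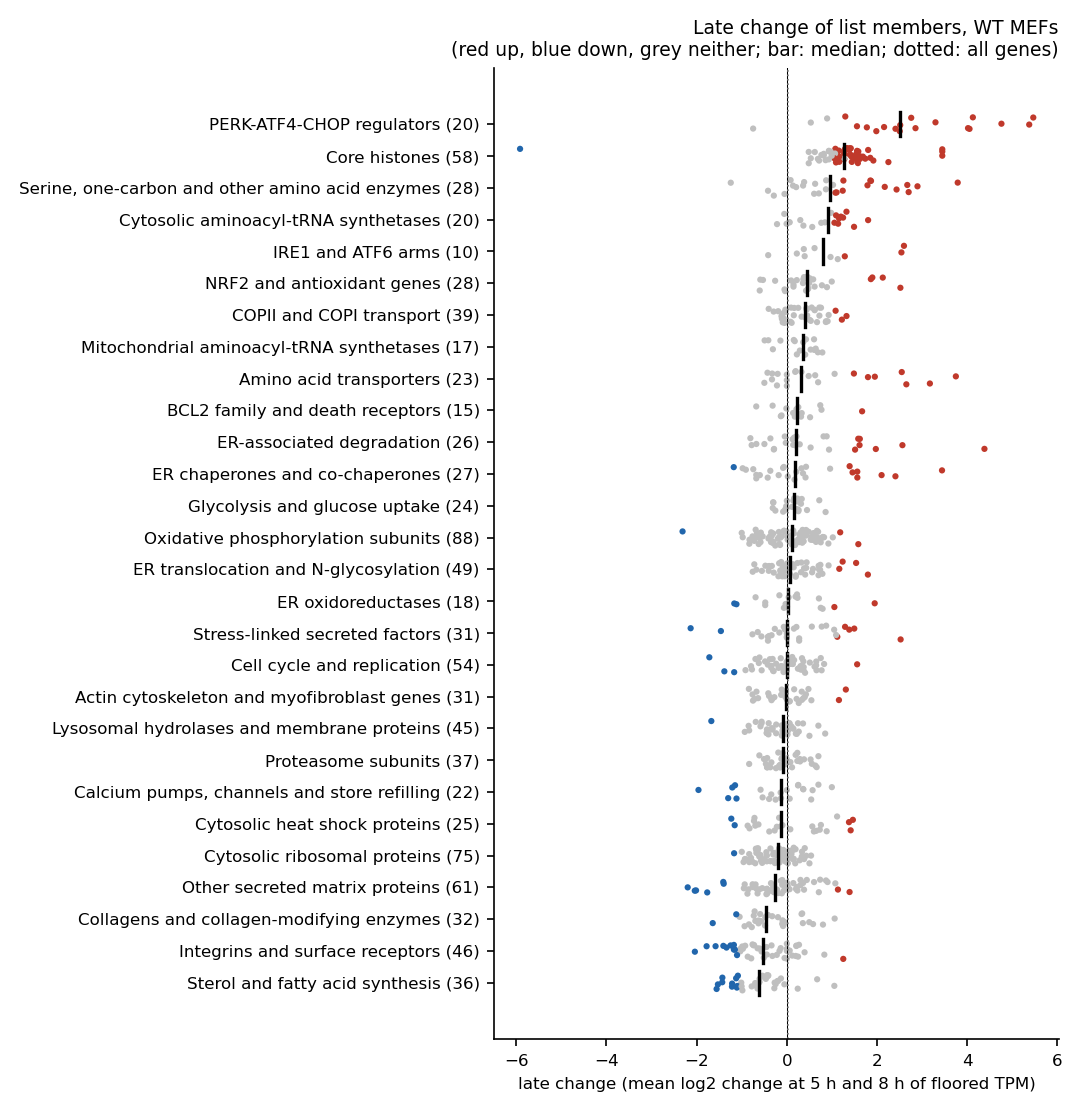
Late change of every measured member (points) of the 28 gene lists, ordered by the list median (black bar), with the number measured in brackets, genes up in red, genes down in blue and others in grey. The dotted line is the median of all genes, 0.02. The PERK-ATF4-CHOP list has a median of 2.51 and the sterol list, lowest, one of −0.61.

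Sterol and fatty acid synthesis was the list with the lowest median, −0.61. None of its 36 genes was up, 10 were down, and 33 were below the control at both times. Elovl6, a fatty acid elongase, had 123, 40.6 and 43.0 TPM (late change −1.56), and Sc5d, a desaturase late in cholesterol synthesis, 185, 62.2 and 65.9 TPM (−1.53). Cyp51, the lanosterol demethylase, had 407, 154 and 147 TPM (−1.43) and Idi1, the isopentenyl diphosphate isomerase, 180, 69.8 and 64.1 TPM (−1.43). Hmgcs1, Msmo1, Nsdhl, Hsd17b7 and Dhcr7, all enzymes of cholesterol synthesis, were down as well, with late changes from −1.21 (Hsd17b7) to −1.09 (Hmgcs1), and Hmgcs1 and Msmo1 were not called with the GC trend removed.

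Surface receptors and adhesion proteins came next. Of 46 integrins and surface receptors, 10 were down and 1, the collagen receptor Ddr2 (55.8, 129 and 137 TPM, late change 1.25), was up, with a median of −0.54. Itga6, an integrin chain that binds laminin, had 41.4, 10.7 and 9.49 TPM (−2.04). Met, the receptor of hepatocyte growth factor, had 24.1, 7.84 and 6.26 TPM (−1.78), and Tfrc, the transferrin receptor, 351, 111 and 123 TPM (−1.58). Ncam1, a neural cell adhesion molecule, had 125, 49.6 and 44.6 TPM (−1.41). Itgb1, the β chain common to many integrins, had 1425, 669 and 596 TPM (−1.18), and it was not called with the GC trend removed (−0.84). This list took 1.42% of footprints in the control, 0.825% after 5 h and 0.790% after 8 h.

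Matrix genes were lower on the whole, with a few far below the rest. Of 61 secreted matrix proteins other than collagens, 6 were down and 2 up, with a median of −0.26. Nid1, a basement membrane linker, had 170, 38.6 and 35.5 TPM (late change −2.20) and Fbln2 383, 98.6 and 91.3 TPM (−2.01). Timp3, an inhibitor of matrix proteases, had 136, 40.4 and 39.6 TPM (−1.77) and Spp1, osteopontin, 932, 378 and 326 TPM (−1.41). Lamb2, a laminin chain (1.39), and Loxl4 (1.13) were the 2 up, and Loxl4 was not called with TMM factors, with DESeq2 size factors or with the GC trend removed. Fn1, fibronectin, had 672, 409 and 385 TPM (−0.76) and was not called.

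Of 32 collagens and collagen-modifying enzymes, 2 were down, none was up and the median was −0.46. The 2 were Pcolce2, an enhancer of procollagen processing (46.6, 15.5 and 14.3 TPM, late change −1.64), and the lysyl hydroxylase Plod2 (99.2, 47.3 and 44.0 TPM, −1.12), which was not called with the GC trend removed. Col1a1, the chain of type I collagen with the most footprints here, had 1400, 1060 and 1015 TPM (−0.43). P4ha1, a prolyl hydroxylase, had 172, 87.3 and 79.6 TPM (−1.05) and missed the threshold at 5 h, while P3h2, at 3.13, 7.97 and 8.73 TPM (1.06), was close to it in the other direction.

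The 12 largest decreases included Angptl2, a secreted angiopoietin-like protein, at 63.1, 7.92 and 9.30 TPM (late change −2.88), and Hmga2, an architectural chromatin protein, at 712, 96.6 and 131 TPM (−2.66). Rhox8, a homeobox gene, had 53.8, 4.39 and 1.14 TPM, and its change of −3.68 is held back by the floor. The secreted or surface proteins Oaf (33.5, 5.64 and 6.96 TPM), Sema7a (21.8, 4.63 and 4.09) and Hbegf (213, 47.8 and 49.3) were also among them, with late changes of −2.42, −2.32 and −2.13. Uqcrh, a small subunit of respiratory complex III, had 1129, 225 and 230 TPM (−2.31), and Ptms, parathymosin, 1335, 277 and 264 TPM (−2.30). Ccng1 (−2.13) and Rwdd1 (−2.12) completed the set besides the histone gene Hist1h3h.

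**Figure D4:**
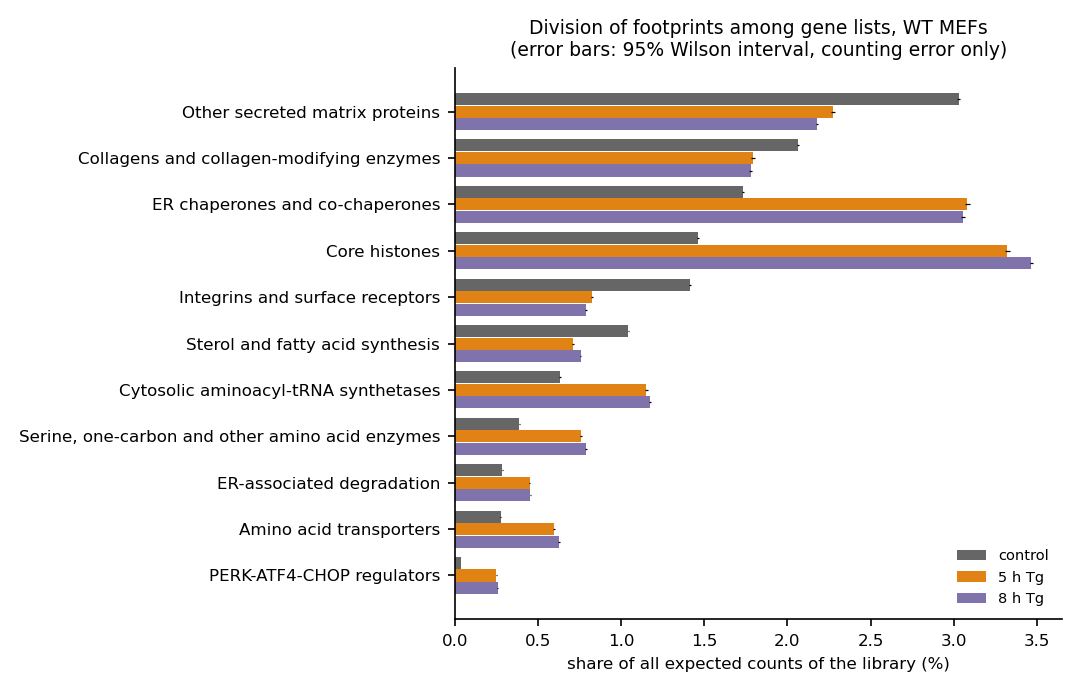
Share of all expected counts of each WT library taken by 11 gene lists, with bars for the control, 5 h and 8 h of Tg starting at 0 and 95% Wilson intervals for counting error. ER chaperones go from 1.73% to 3.08% and 3.06%, core histones from 1.46% to 3.32% and 3.47%, and integrins and receptors from 1.42% to 0.825% and 0.790%.

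Calcium handling held genes down and none up. None of 22 genes was up, 5 were down and the median was −0.13. Atp2a2, the SERCA pump that Tg blocks, was level at 308, 318 and 326 TPM (late change 0.06). Stim2, a sensor of the calcium store, had 16.5, 4.51 and 3.48 TPM (−1.96), and its relative Stim1 18.7, 8.95 and 8.31 (−1.12). Atp2c1, the Golgi calcium pump, had 28.7, 12.1 and 11.2 TPM (−1.30), Tmco1, an ER calcium leak protein, 253, 116 and 103 (−1.21), and Atp2b1, a plasma membrane pump, 49.0, 21.0 and 23.3 (−1.15). Of these, Stim1 was not called with TMM or DESeq2 size factors, and Tmco1 and Atp2b1 were not called with the GC trend removed.

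Lists of other organelles and pathways were closer to the median of all genes. The 45 lysosomal genes had a median of −0.08 and a single member down, Hgsnat (17.8, 6.47 and 4.82 TPM). Lamp1 had 820, 434 and 425 TPM (late change −0.93), Asah1 248, 135 and 140 (−0.85), and Mcoln1, a lysosomal calcium channel, 18.4, 31.9 and 34.6 (0.85). The 24 glycolysis genes had a median of 0.15 with none called, and Hk2, hexokinase 2, had 19.6, 35.6 and 35.4 TPM, Pfkp 16.4, 25.9 and 28.3, Pfkm 12.5, 17.2 and 16.9, and Tpi1 470, 600 and 581. The 31 genes of the actin cytoskeleton had a median of −0.02, with Flnc (37.7, 90.5 and 96.1 TPM), which encodes a filamin, up and Tpm1 (late change −0.76) and Tpm3 (−0.84) below the control. Flnc was not called with the GC trend removed.

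Antioxidant genes of the NRF2 group had a median of 0.44, and 4 of 28 were up and none down. Hmox1, heme oxygenase 1, had 83.5, 451 and 507 TPM (late change 2.52), and the autophagy receptor Sqstm1 had 209, 865 and 961 TPM (2.13). Ftl1, ferritin light chain, which has near-identical copies, had 81.7, 330 and 280 TPM (1.90), and Srxn1, sulfiredoxin, 11.8, 43.6 and 42.6 TPM (1.86). The 25 cytosolic heat shock proteins had a median of −0.14, with Cryab (1.46), Hspb6 (1.42) and Hspa1a, which has a near-identical copy (1.38), up and Dnajb6 (−1.23) and Dnaja1 (−1.16) down, and none of the 5 was called with the GC trend removed.

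The 54 genes of cell cycle and replication had a median of −0.005, with 3 cyclins down and 1 licensing factor up. Ccnd1, cyclin D1, had 163, 47.5 and 51.8 TPM (late change −1.72), and its counts per library total were 0.292 (0.253 to 0.335) and 0.317 (0.287 to 0.351) of the control. Ccne2 (55.6, 20.7 and 21.8 TPM, −1.39) and Ccne1 (24.0, 10.1 and 11.3 TPM, −1.17) were the other cyclins on this list. Ccng1, cyclin G1, which the list does not hold, had 36.1, 8.90 and 7.68 TPM (−2.13). Cdt1, which loads the replicative helicase, had 27.4, 75.8 and 85.7 TPM (1.56). Ccne2 was not called with the GC trend removed.

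Among 31 stress-linked secreted factors the median was 0.00, and 5 were up and 2 down. Tgfb2 had 18.9, 56.3 and 50.6 TPM (late change 1.495) and Vegfa, a growth factor for vessels, 45.9, 120 and 120 TPM (1.38). The chemokines Ccl7 (2.52) and Cxcl10 (1.29) were up with under 100 counts on average, and Gdf15 was listed at 0 in the control and at 8.18 and 9.23 TPM. Hbegf and Ereg (−1.46), both ligands of the EGF receptor family, were the 2 down. Vegfb had 14.9, 24.8 and 29.96 TPM. Neither Gdf15 nor Bbc3 was called with the GC trend removed. In the BCL2 family and death receptors 1 of 15 was up, the BH3-only gene Bbc3 (5.15, 19.7 and 13.7 TPM), while Bax had 98.9, 154 and 178 TPM, Tnfrsf1a 21.5, 29.7 and 31.6, Bcl2l1 35.2, 21.0 and 23.0, and Bak1 131, 106 and 105.

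Core histones took a larger share of footprints in the late libraries. They took 1.46% in the control, 3.32% after 5 h and 3.47% after 8 h, and 40 of the 58 measured genes were up and 1 down, with a median late change of 1.27. The same was seen in each of the 4 classes, with H2A from 0.364% to 0.823% and 0.890%, H2B from 0.430% to 0.894% and 0.925%, H3 from 0.35% to 0.924% and 0.953%, and H4 from 0.319% to 0.681% and 0.698%. Histone genes are near-identical copies among which reads had to be divided, so single genes are uncertain: 12 of the 58 shared their values exactly with another, Hist1h2ag among them, and Hist1h3h, the gene down, was listed at 242 TPM in the control and at 0 in both late libraries while the share of its class was higher. Histone coding sequences are rich in G and C, and with the GC trend removed 12 of 58 were up and the median was 0.69.

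Other large machines had few genes called. The cytosolic ribosomal proteins took 6.77% of footprints in the control, 5.86% after 5 h and 5.71% after 8 h, and 55 of 75 were below the control at both times. The 75 cytosolic ribosomal proteins had a median of −0.19 with none up and 1 down, Rpl24 (2611, 1168 and 1152 TPM, late change −1.17), and Rpl36a had 2300, 1202 and 1101 TPM, just short of the threshold at 5 h. The 88 subunits of oxidative phosphorylation had a median of 0.12 with Uqcrq (368, 820 and 854 TPM) and Cox6a2 (0, 16.9 and 8.50 TPM) up and Uqcrh down, and Uqcrq was not called with the GC trend removed. The 37 proteasome subunits had a median of −0.09 and none was called, with Psma3 at 813, 467 and 444 TPM and Psmb5 at 297, 461 and 506.

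The calling rule did not use promoter elements, and ERSE, CARE and UPRE were found in a larger share of the genes up than of all genes. An ERSE was found in the promoter window of 6 of 429 matched genes up (1.40%), none of 237 genes down and 0.190% of all 8417 windows. Read the other way, 16 analysed genes held an ERSE, of which Syvn1, Hspa5, Ero1lb, Alg12, Derl3 and Creld2 were up and none was down (37.5% against the 5.02% of all genes). Alg12 and Creld2 share a single ERSE, which is counted for both. A CARE was found in 8.62% of the windows of genes up, 2.95% of those of genes down and 2.65% of all, and 37 of 223 genes with one (16.6%) were up. Trib3, Herpud1, Chac1, Nupr1, Slc7a11, Atf3, Pck2, Pycr1, Asns and Slc1a4 were among these 37, as were the synthetases Aars, Tars, Yars and Gars. For UPRE the shares were 2.33%, 0.422% and 1.10%, and for CRE 3.26%, 2.53% and 3.81%. A match describes the letters in this window and not a bound site.

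A hydrophobic N terminus, as signal peptides and membrane anchors near the start have, was encoded by a larger share of the genes down. With this taken as a window of 8 residues of mean Kyte-Doolittle hydropathy of at least 2.2 within the first 30 residues, 33.6% of the 295 genes down with a coding sequence had it, against 15.9% of the 516 genes up and 16.9% of all 10245. Of the 1729 genes with it, 99 (5.73%) were down and 82 (4.74%) up, and of the 8516 without it, 196 (2.30%) were down and 434 (5.10%) up. The median late change was 0.00 with and 0.04 without it, where genes under the floor in all 3 libraries count as exactly 0.00. Within each of 4 equal bins of genes by GC content the share down was higher with than without it, at 10.1% and 4.95% in the lowest bin, 7.01% and 2.12% in the next, 3.88% and 1.01% in the third and 3.24% and 0.956% in the highest. The share up in the highest bin was 8.21% with and 12.1% without it, and the median late change there was 0.07 and 0.41.

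GC content of the coding sequence moved with the late change. Genes up had a median of 57.9% GC, genes down 48.2% and all genes 52.7%. From the lowest to the highest of 4 equal bins of GC content the median late change was −0.23, 0.00, 0.14 and 0.35, and the highest bin held 292 of the genes up and 35 of the genes down, while the lowest held 26 and 145. In PERK −/− MEFs at the same times the medians of the 4 bins were 0.03, 0.02, 0.02 and 0.00. In NIH3T3 cells at 7 h they were 0.00 in each, as was the median over all genes there. Genes under the floor in both NIH3T3 libraries count as exactly 0.00, so these medians cannot show whether a GC trend was present in those cells. The floor acts in the same way on MEFs. The highest bin of PERK −/− MEFs was at exactly 0.00, so a weak trend in those cells could be hidden too. With a smooth trend on GC content removed from each late library, a setting chosen after seeing the data, 317 genes were up and 273 down, and the PERK-ATF4-CHOP list kept 17 of 20 up. In the highest bin, 16 of 47 genes with a CARE (34%) were up against 10.9% of those without it. The part of base composition in the other calls was not tested.

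**Figure D5:**
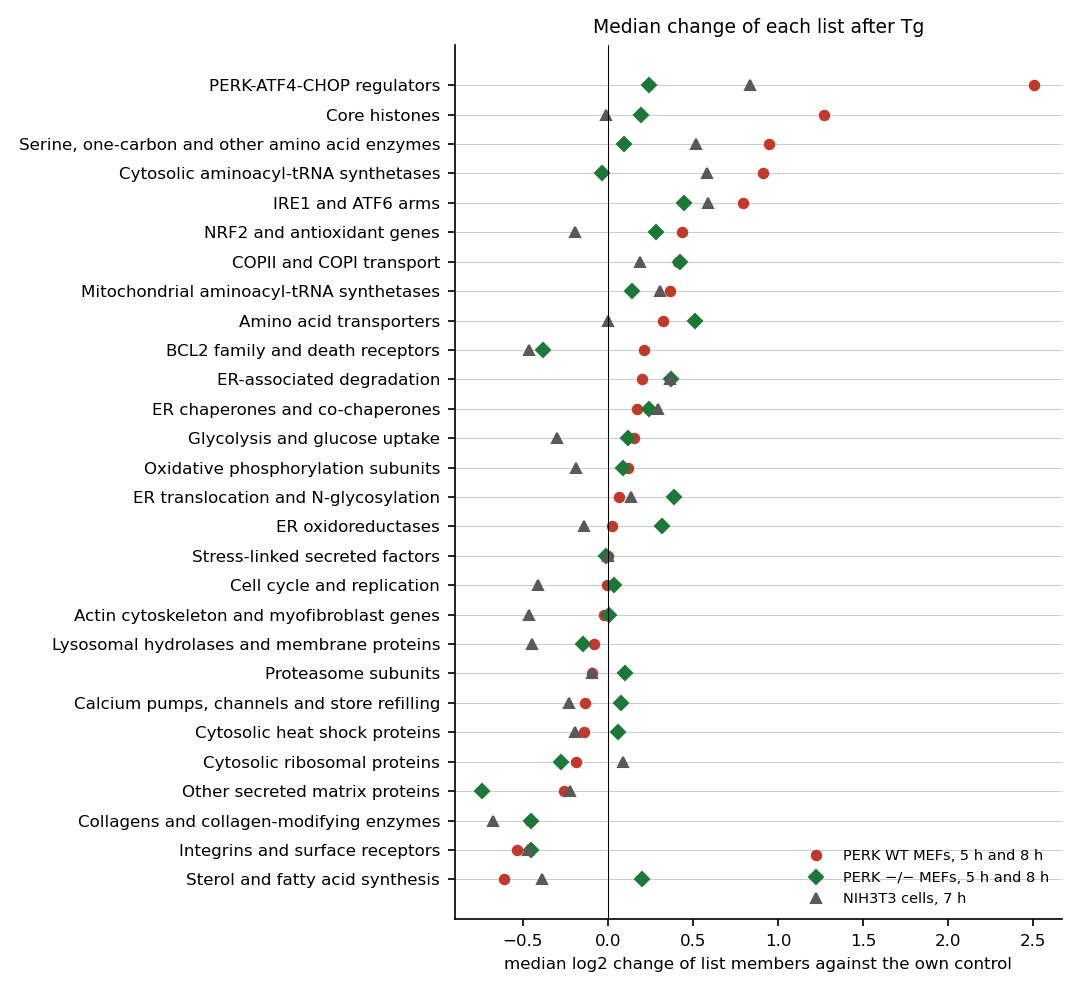
Median log2 change of each of the 28 lists against the untreated control of the same cells, in PERK WT MEFs (5 h and 8 h together), PERK −/− MEFs (5 h and 8 h together) and NIH3T3 cells (7 h). The PERK-ATF4-CHOP list is at 2.51 in WT, 0.24 in PERK −/− MEFs and 0.84 in NIH3T3 cells, and the sterol list at −0.61, 0.20 and −0.38.

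The same genes were then read in the cells without PERK, with no test of the difference. By the same rule 93 genes (0.891%) were up and 142 (1.36%) down in PERK −/− MEFs at both 5 h and 8 h. They included 29 of the 524 genes up in WT, which is 5.53% of the WT genes and 31.2% of those of PERK −/− MEFs, and 36 of the 306 genes down (11.8% and 25.4%). The median late change there was 0.28 for the WT genes up and −0.32 for the WT genes down. None of the 20 PERK-ATF4-CHOP genes was up at both times in PERK −/− MEFs, where Trib3 had 12.5, 5.30 and 15.5 TPM and Ddit3 6.91, 10.8 and 13.4. The list median there was 0.14 at 5 h and 0.36 at 8 h. Some members passed the threshold at a single time, such as Chac1 at 8 h (15.3, 3.86 and 32.9 TPM) and Jdp2 at 5 h (9.30, 19.1 and 10.3 TPM). The number of calls depends on how well the late libraries agree, which was not measured over all genes in PERK −/− MEFs. Their 5 h library had 11784 genes over 0 counts, against 12634 in the control and 12647 at 8 h.

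The WT lists had these values without PERK, where some medians differed between the late times. At 5 h and 8 h they were 0.01 and 0.50 for ER chaperones and 0.05 and 0.43 for the sterol list. For the cytosolic synthetases they were −0.036 and −0.005. The cytosolic synthetases had a median of −0.03 and the amino acid enzymes one of 0.10 there, with none called in either. Such counts are to be read beside the 0.891% of all genes up and the 1.36% down in these cells. None called in a list of this size is close to those shares. The amino acid transporters had 1 of 23 up there and a median of 0.51, against 0.32 in WT. They took 0.270% of footprints in untreated PERK −/− MEFs, 0.388% after 5 h and 0.521% after 8 h. The ER chaperones had 5 up and 2 down (median 0.24), Hspa5 had 1646, 3890 and 4376 TPM (late change 1.33) and Sdf2l1 38.9, 145 and 153 TPM (1.94). Medians were 0.39 for ER translocation and N-glycosylation, 0.37 for ER-associated degradation and 0.32 for ER oxidoreductases, against 0.07, 0.20 and 0.02 in WT. For COPII and COPI transport they were 0.42 without PERK and 0.41 in WT, and for the IRE1 and ATF6 arms 0.45 and 0.79. Herpud1 had 36.5, 96.7 and 85.8 TPM (1.32) in PERK −/− MEFs. For the sterol list the median was 0.20 with none called, and Sc5d had 202, 283 and 329 TPM where in WT MEFs it was lower after Tg. Integrins and receptors had a median of −0.45 and other matrix proteins one of −0.74, lower than the −0.26 of WT, with Fbln2 at 477, 46.3 and 26.5 TPM.

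In NIH3T3 cells at 7 h, at a lower dose, 611 of the same genes (5.86%) were up and 787 (7.54%) down against their control. These calls rest on a single late library, a looser rule than that for MEFs, which asks for both 5 h and 8 h. By a single library, WT MEFs had 611 up and 370 down at 5 h, and 673 and 404 at 8 h. Among the NIH3T3 calls were 129 of the 524 WT genes up (24.6%, and 21.1% of the NIH3T3 genes) and 64 of the 306 genes down (20.9% and 8.13%). The PERK-ATF4-CHOP list had 9 of 20 up (median 0.84), with Ddit3 at 47.2 and 383 TPM and Ppp1r15a at 11 and 118. Its untreated levels were higher than in untreated WT MEFs for all members but Atf3, Ppp1r15b and Vldlr. Trib3 had 68.5 and 295 TPM, against 4.12 in untreated WT MEFs, and Atf4 had 178 and 527, against 34.5. Hspa5 had 1985 and 12210 TPM. The sterol list had 10 of 36 down (median −0.38) and the collagen list 10 of 32 (−0.68), whereas the core histones, with 11 up and 4 down, had a median of −0.01. By class, the share of footprints went from 0.656% to 0.939% for H2B and from 0.602% to 0.817% for H4. It went from 0.694% to 0.735% for H2A and from 0.810% to 0.694% for H3.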

How the data were processed

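Ribosome footprints of 13 libraries, 1 per condition, were available, and the comparison used PERK WT MEFs untreated and after 5 h and 8 h of Tg. The authors took 22 to 34 nt footprints, filtered rRNA and tRNA with STAR, aligned with Bowtie2 to mm10 RefSeq coding sequences without their outer 30 nt (transcripts under 100 nt left out), and deposited RSEM expected counts and TPM. Tool versions are not given in the sources used here. All deposited expected counts were whole numbers. Of 22406 symbols, 25 had been turned into dates in the tables. Totals ranged from 5617552 (5 h) to 11949174 (control) expected counts.

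TPM were floored at 4 and compared with the control as log2 changes, over genes with a mean of at least 2 TPM. Without replicates no test was made. Intervals of count ratios are exact conditional 95% intervals and those of shares are Wilson intervals. The lists and members were chosen with earlier results of these data known. Genes were named as the 12 largest late changes each way with at least 100 counts on average, the 4 largest of each list (2 for lists built by symbol pattern), 14 fixed genes, and genes at least 2-fold apart between 5 h and 8 h with at least 100 counts. Members called in a list, motif holders, markers, Eif3j2 and genes of the KDEL group named beside these were chosen after their values were seen. Alternatives were another floor, pseudocount, filter, fold, time, scaling (TMM of edgeR 4.0.16, size factors of DESeq2 1.42.0, used for scaling only) and thinned depth, and, chosen after seeing the data, a GC trend removed (lowess of statsmodels 0.14.6 with a fraction of 0.3) and identical rows counted once. Coding sequences for GC content and N termini came from GENCODE and matched 10245 genes (98.2%), and promoters from RefSeq matched 8417 (80.7%). Scripts ran in Python 3.11.15 and R 4.3.3 and were tested on simulated data. A few genes are not reported here.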

Additional observations from a re-analysis of the deposited data

Results flagged for a closer look

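For 4 genes the late libraries lay on opposite sides of the control in PERK WT and PERK −/− MEFs, both at 5 h and at 8 h, with calls in both cells. Lamb2, a laminin chain, had a late change of 1.39 in WT MEFs (18.0 TPM untreated, then 46.9 and 47.3 TPM) and of −1.08 in PERK −/− MEFs (55.6, 25.1 and 27.5 TPM). LOC102638183 had 1.67 and −2.03. Rbm4, an RNA-binding protein gene with a near-identical neighbour that could share its reads, had 1.18 and −1.23, and its WT counts were 0, 17 and 42. BC028528 had −1.38 and 1.34, with 47, 2 and 12 counts in WT MEFs. With 1 library per condition, the difference between the genotypes was not tested for any of them.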

How the results depend on the processing

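No paired analysis was possible because each condition is 1 library and no result comes from a test. With a single late library in place of both, 611 genes were up and 370 down by the 5 h library alone, and 673 and 404 by the 8 h library alone. The counts of 524 genes up and 306 down were 802 and 377 with a floor of 1 TPM, 134 and 45 with a 3-fold threshold, and 317 and 273 with the GC trend removed, which shared 292 and 199 with the main calls. Scaled by TMM they were 427 and 400, and by DESeq2 444 and 384. The 15 genes apart between 5 h and 8 h were 73 with a floor of 1 TPM and 1 at 3-fold. Of the list medians, that of the collagens was −0.72 with the GC trend removed, that of other matrix proteins −0.41 and that of core histones 0.69. The same setting reversed the BCL2 family (−0.085) and glycolysis (−0.05). The stress-linked secreted factors had −0.27 over genes with at least 100 counts, and the proteasome had −0.19 under TMM and −0.18 under DESeq2 scaling. Of the 180 called genes on the lists, 162 kept their call under TMM scaling, 164 under that of DESeq2 and 127 with the GC trend removed, where core histones up went from 40 to 12. The cause of these shifts was not tested. Counts thinned to the smallest library gave 535 genes up and 319 down. The floor of 4 TPM, a choice and not a depth limit, held back the late change of 70 genes up that were under it in the control and of 23 genes down that were under it at both late times.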
